A study of Homo sapiens with 16 samples.

Results

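The genes described here are 10 of the autophagy pathway, SQSTM1, MAP1LC3B, GABARAPL1, WIPI1, ULK1, ATG5, ATG12, ATG16L1, NBR1 and TFEB. Their rows were taken by name, as those that carry these symbols, and all 10 were found among 23228 gene rows. The 10 genes were chosen with earlier results of these data known. Their counts and medians beside those of all genes are therefore a description and no test of the set. All 10 passed the filter on low counts, which left 13948 genes for testing.

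The libraries came from MDA-MB-231, an established human breast cancer line of mesenchymal character that lacks the oestrogen receptor, grown in DMEM with 10% serum and harvested before confluence as total RNA. Cells of the combination groups were kept in 1 µM sorafenib, a multikinase inhibitor, for 12 h and then received methyl methanesulfonate (MMS), which methylates DNA. Cells of the MMS groups received MMS alone, cells of the sorafenib groups 1 µM sorafenib alone, and cells of the control groups the solvent DMSO. For MMS the submitters give 40 µg/mL in the design text but 40 µM in each sample's label, and neither was preferred. RNA was taken at 8 h and at 24 h, counted from the addition of MMS in the combination, so cells of the combination had 12 h more of sorafenib than cells on sorafenib alone. Each of the 8 groups held 2 libraries from 2 experiments that the series description calls independent, and all are models of a single cell line. Libraries called replicate 1 here have titles that begin MDA231, and those called replicate 2 have titles that begin MDAMB231. The labels do not say which library belongs to which experiment, so replicate numbers stand for the title starts only.

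Autophagy encloses cytoplasm in a double membrane and delivers it to the lysosome. The ULK1 kinase complex starts the process, WIPI proteins bind phosphatidylinositol 3-phosphate on the forming membrane, and the ATG12-ATG5-ATG16L1 complex attaches LC3 and GABARAP proteins to its lipid. Receptors such as SQSTM1 and NBR1 link ubiquitinated cargo to those proteins, and the transcription factor TFEB drives genes of lysosomes and autophagy. In mouse fibroblasts short of amino acids, the transcription of several of these genes, Sqstm1, Nbr1, Map1lc3b, Atg12 and Atg16l1 among them, depends on the stress factor ATF4.

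Depth ranged over 16774156 to 26448212 reads in genes (median 20348720 over the 16 libraries). Levels are given as CPM, a gene's count divided by these reads and multiplied by 1000000, and n = 2 libraries per group throughout. The markers of the line were present in every library, with VIM at 1479 to 2476 CPM, and their summed level moved with MMS. That sum of 5 markers was 3780 to 4280 CPM in the combination, 3846 to 4320 CPM in MMS, 5026 to 5642 CPM in sorafenib and 5248 to 5700 CPM in DMSO libraries at 8 h. At 24 h it was 3794 to 3952 CPM in the combination, 3951 to 4134 CPM in MMS, 4953 to 5452 CPM in sorafenib and 5019 to 5403 CPM in DMSO libraries. Of 6 genes taken as low or absent in the line, ESR1, the oestrogen receptor gene, stood at 0 to 0.224 CPM. It had no read in 4 libraries. PGR stood at 0.151 to 0.674, CDH1 at 0.241 to 9.34 and GATA3 at 4.65 to 10.7 CPM. EPCAM stood at 8.86 to 19.3 and ERBB2 at 56.9 to 100 CPM. The summed level of 6 markers of blood, endothelial and stromal cells was low but moved with MMS. It was 9.36 to 13.9 CPM in the combination, 7.79 to 10.4 CPM in MMS, 15 to 18.0 CPM in sorafenib and 15.6 to 18.8 CPM in DMSO libraries at 8 h. At 24 h it was 15 to 15.8 CPM in the combination, 10.8 to 14.9 CPM in MMS, 26.0 to 30.2 CPM in sorafenib and 25 to 35.4 CPM in DMSO libraries. The sum of the 6 genes taken as low or absent moved with sorafenib. At 8 h it was 91.2 to 96.8 CPM in the combination and 74.1 to 74.4 CPM in MMS libraries. Sorafenib libraries then had 100 to 108 CPM and DMSO libraries 81.1 to 88.3 CPM. At 24 h it was 125 CPM in both combination libraries and 98.9 to 106 CPM in MMS libraries. Sorafenib libraries then had 128 to 134 CPM and DMSO libraries 93.0 to 105 CPM. The part of these sums in the results below was not tested. In bulk RNA, fewer cells of a type and less RNA per cell cannot be told apart.

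Per kilobase of merged exon length, which allows levels of different genes to be compared, the genes spanned a wide range in DMSO libraries at 8 h. SQSTM1 stood highest with a mean of 167 CPM per kb, followed by NBR1 with 39.9, MAP1LC3B with 29 and WIPI1 with 16.1 CPM per kb. ATG12 (12.0), ATG5 (11.7) and ATG16L1 (10.1 CPM per kb), whose proteins form one complex, lay close together. GABARAPL1 (5.55), ULK1 (3.77) and TFEB (0.887 CPM per kb) were lowest, and TFEB rested on only 43 to 156 reads per library.

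MMS alone, set against DMSO at 8 h, changed 8 of the 10 genes. Of the 10 genes, 6 rose and 2 fell in edgeR's quasi-likelihood test at an adjusted p under 0.05, a threshold passed by 26.5% of all genes tested in either direction (14.5% higher and 12% lower). The log2 changes of the 10 genes had a median of 0.78, against -0.0042 over all genes. The cargo receptor SQSTM1 and the LC3 gene MAP1LC3B rose 2.34-fold and 2.32-fold, and ATG12 2.80-fold, GABARAPL1 2.14-fold and ULK1 2.01-fold, whereas ATG16L1 fell to 0.612 of its DMSO level.

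Among the receptors, SQSTM1 had 1281 and 1363 CPM in MMS libraries, against 546 and 613 CPM in DMSO libraries at 8 h. Both MMS libraries lay far above both DMSO libraries, and the log2 change was 1.23 ± 0.11 SE (adjusted p = 8.77e-06). NBR1, a related receptor that also binds ubiquitin and LC3, had 166 and 165 CPM in MMS libraries, against 194 and 210 CPM in DMSO libraries. The groups did not overlap, but the difference was small, a log2 change of -0.25 ± 0.08 (adjusted p = 0.031). The call on NBR1 was lost when any one of the 4 libraries was left out, with adjusted p of 0.108 (MMS replicate 1 left out), 0.106 (MMS replicate 2), 0.0613 (DMSO replicate 1) and 0.158 (DMSO replicate 2). On the opposite strand SQSTM1 shares 39.8% of its exon bases with MRNIP, listed as C5orf45, in the GENCODE release 29 annotation. Whether counting used the strand is not given in the sources used here, so reads of overlapping genes cannot be told apart, but C5orf45 averaged only 2.58 CPM in MMS and 2.08 CPM in DMSO libraries.

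Of the ubiquitin-like proteins that are attached to the membrane, MAP1LC3B encodes the usual marker of autophagosomes. It had 186 and 209 CPM in MMS libraries, against 79.9 and 95.1 CPM in DMSO libraries. The groups were well apart, with a log2 change of 1.21 ± 0.10 (adjusted p = 4.83e-06). GABARAPL1, of the GABARAP branch of the same family, had 35.0 and 34.5 CPM in MMS libraries, against 14.2 and 19.0 CPM in DMSO libraries. All of its MMS values exceeded its DMSO values, and the log2 change was 1.10 ± 0.17 (adjusted p = 0.000468).

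MAP1LC3B has a copy, MAP1LC3B2, with a near-identical coding sequence, in which reads cannot be assigned with certainty. The rest of the 3.016 kb of merged exons of MAP1LC3B was not compared. A match of their coding sequences in GENCODE release 29 found 376 of 378 bases identical (99.47%), with the substitutions C30G and A338G, given as the MAP1LC3B base, the position from the first coding base, and the MAP1LC3B2 base. The stretches around both positions are shown because no other coding base separates the pair. The capital marks the base that differs.
MAP1LC3B: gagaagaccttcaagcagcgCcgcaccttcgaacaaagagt
MAP1LC3B2: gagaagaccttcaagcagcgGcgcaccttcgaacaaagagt
MAP1LC3B: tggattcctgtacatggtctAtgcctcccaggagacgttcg
MAP1LC3B2: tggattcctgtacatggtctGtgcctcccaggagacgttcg
MAP1LC3B2 had 22.0 and 25.8 CPM in MMS libraries, against 10.3 and 14.1 CPM in DMSO libraries, and rose by a log2 change of 1.00 ± 0.15 (adjusted p = 0.000368). The coding sequence of GABARAPL1 is far from that of MAP1LC3B, with 51.85% of bases identical.

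The 3 genes of the conjugating complex did not move together. ATG12, itself a ubiquitin-like protein that is joined to ATG5, had 148 and 134 CPM in MMS libraries, against 50.1 and 53.7 CPM in DMSO libraries. Both MMS libraries lay above both DMSO libraries, with the highest log2 change of the 10 genes, 1.48 ± 0.10 (adjusted p = 1.92e-06). ATG5, its partner, had 58.8 and 57.0 CPM in MMS libraries, against 55.4 and 55.9 CPM in DMSO libraries. The 4 values lay close together, and the log2 change of 0.09 did not pass the test (adjusted p = 0.455), with a 95% interval of -0.09 to 0.28. ATG16L1, which places the complex on the membrane, had 21.3 and 20.3 CPM in MMS libraries, against 35.1 and 34.6 CPM in DMSO libraries. It fell clear of the DMSO range, with a log2 change of -0.71 ± 0.09 (adjusted p = 0.000135). ATG12 shares 8.72% of its exon bases with AP3S1 on the opposite strand, whose own log2 change was 0.23 (adjusted p = 0.108).

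The early-acting genes both rose. ULK1, the kinase that starts the process, had 34.6 and 44.2 CPM in MMS libraries, against 17.2 and 22.9 CPM in DMSO libraries. The groups did not overlap. Within the same title start the change was even, 1.03 in replicate 1 and 1.00 in replicate 2. With the replicate number as a block it was 1.02 ± 0.12 (adjusted p = 9.6e-07), in a fit that called 43.3% of all genes. Without the block the spread between replicates was wide, with a log2 change of 1.01 ± 0.25 (adjusted p = 0.0102). The ULK1 call was lost without MMS replicate 2 (0.81, adjusted p = 0.0802) and without DMSO replicate 1 (0.82, adjusted p = 0.0917). WIPI1, which binds phosphatidylinositol 3-phosphate, had 40.8 and 41.0 CPM in MMS libraries, against 30.4 and 30.3 CPM in DMSO libraries. Its rise was smaller but even, 0.47 ± 0.09 on the log2 scale (adjusted p = 0.00206). WIPI1 shares 28.5% of its exon bases with ARSG on the opposite strand, which averaged 1.15 CPM in MMS and 1.38 CPM in DMSO libraries.

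TFEB, the transcription factor of the group, had 4.05 and 7.41 CPM in MMS libraries, against 2.56 and 5.36 CPM in DMSO libraries. The groups overlapped, and replicate 2 was above replicate 1 in each of the 8 groups of the study. The log2 change of 0.55 ± 0.55 did not pass the test (adjusted p = 0.515), and its 95% interval ran from -0.64 to 1.74. Within the same title start the change was more even, 0.68 in replicate 1 and 0.52 in replicate 2. With the replicate number as a block, TFEB was called higher (0.58 ± 0.19, adjusted p = 0.0191), in a fit that called 43.3% of all genes.

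**Figure D1:**
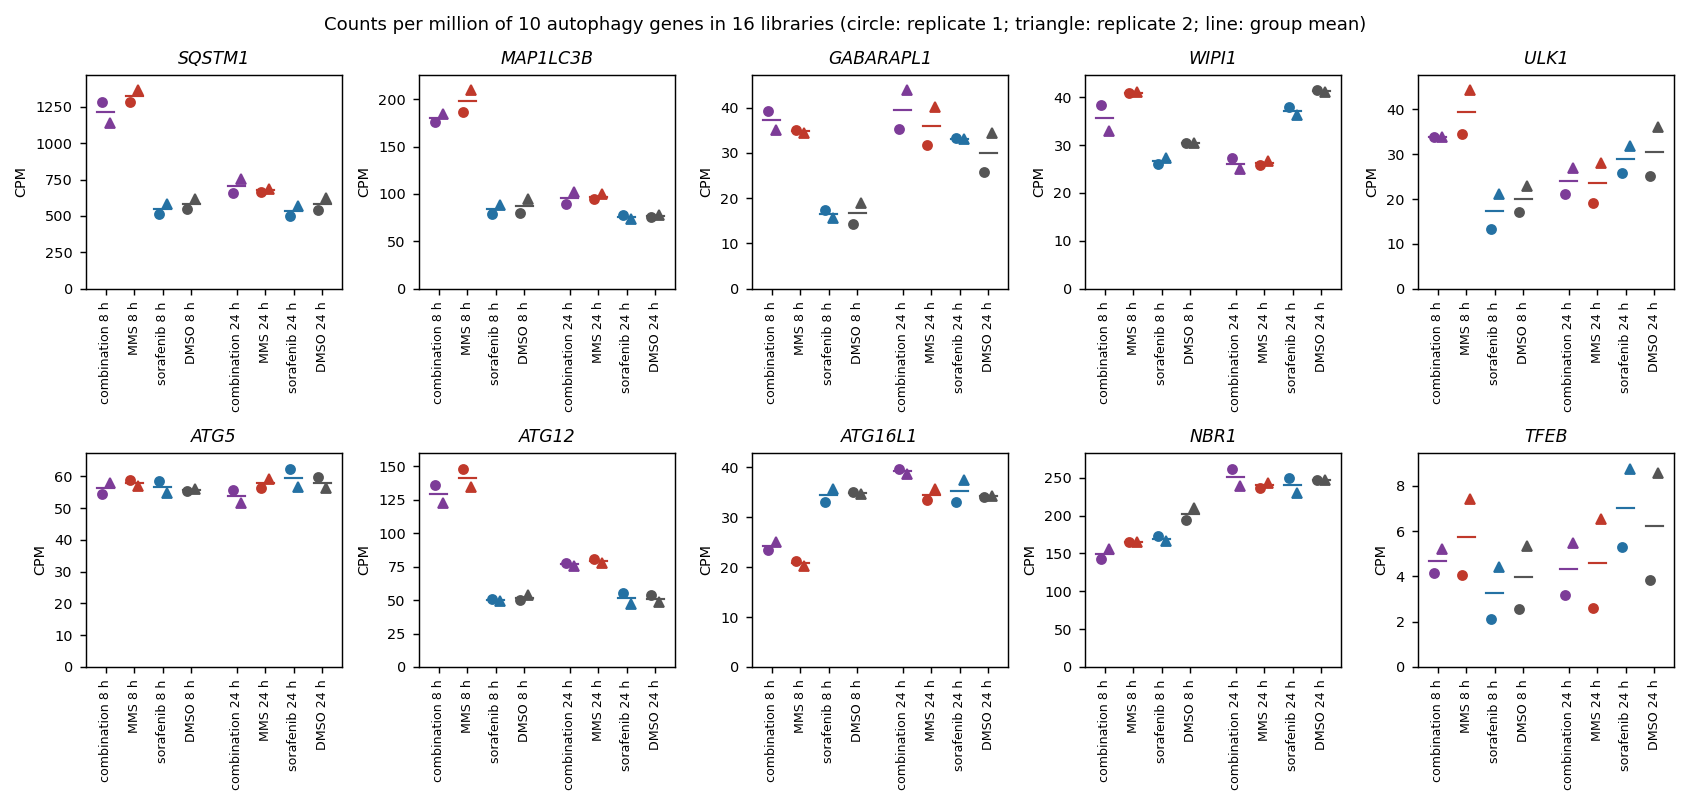
Levels in CPM (y axis, from 0) of each of the 10 genes in all 16 libraries, by group (x axis), where circles are replicate 1, triangles replicate 2 and lines group means. SQSTM1, MAP1LC3B and ATG12 stand high in the combination and MMS groups at 8 h, ATG16L1 stands low there, and TFEB differs between the replicates of every group.

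At 24 h fewer of the genes differed between MMS and DMSO. Of the 10 genes, 2 were higher and 1 was lower, where 31.5% of all genes tested passed (15.2% higher and 16.3% lower). The median log2 change was -0.049, against 0.0033 over all genes. ATG12 and MAP1LC3B were still above DMSO, by less than at 8 h, and WIPI1, which had risen at 8 h, was now lower.

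ATG12 had 80.7 and 77.4 CPM in MMS libraries, against 54.0 and 48.2 CPM in DMSO libraries at 24 h. Its values did not overlap, and the log2 change was 0.58 ± 0.10 (adjusted p = 0.00115). MAP1LC3B had 94.3 and 99.5 CPM in MMS libraries, against 75.4 and 77.4 CPM in DMSO libraries. This difference was narrow, with a log2 change of 0.29 ± 0.10 (adjusted p = 0.0355), and no longer passed when any one of the 4 libraries was left out. The adjusted p of MAP1LC3B was then 0.0808 (MMS replicate 1 left out), 0.0883 (MMS replicate 2), 0.124 (DMSO replicate 1) and 0.0837 (DMSO replicate 2). WIPI1 had 25.8 and 26.6 CPM in MMS libraries, against 41.4 and 41.1 CPM in DMSO libraries. Both MMS libraries lay far below, and the log2 change was -0.71 ± 0.09 (adjusted p = 0.000196).

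The other 7 genes did not pass at 24 h. SQSTM1 had 663 and 687 CPM in MMS libraries, against 538 and 624 CPM in DMSO libraries, and its 95% interval ran from -0.06 to 0.39 on the log2 scale. ATG16L1 had 33.4 and 35.6 CPM in MMS libraries, against 34.1 and 34.3 CPM in DMSO libraries. The DMSO values of ATG16L1 lay between the MMS values, and the interval was -0.23 to 0.15. GABARAPL1 had 31.6 and 40.2 CPM in MMS libraries, against 25.8 and 34.4 CPM in DMSO libraries, with overlap between the groups and an interval of -0.15 to 0.56. For ATG5 the interval was -0.24 to 0.12 and for NBR1 it was -0.26 to 0.07.

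ULK1 and TFEB at 24 h passed, of the fits run, only in that with the replicate number as a block. ULK1 had 19.1 and 28.0 CPM in MMS libraries, against 25.0 and 36.1 CPM in DMSO libraries, and in each replicate number the MMS value was the lower. Its log2 change was -0.43 ± 0.25 (adjusted p = 0.217) without a block and -0.43 ± 0.12 (adjusted p = 0.00532) with the replicate block. TFEB had 2.61 and 6.56 CPM in MMS libraries, against 3.86 and 8.58 CPM in DMSO libraries, with the same order in each replicate number. Its log2 change was -0.49 ± 0.54 (adjusted p = 0.536) without and -0.49 ± 0.19 (adjusted p = 0.04) with the block. With the block 5 of the 10 genes passed, 2 higher and 3 lower, where 48.3% of all genes passed.

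**Figure D2:**
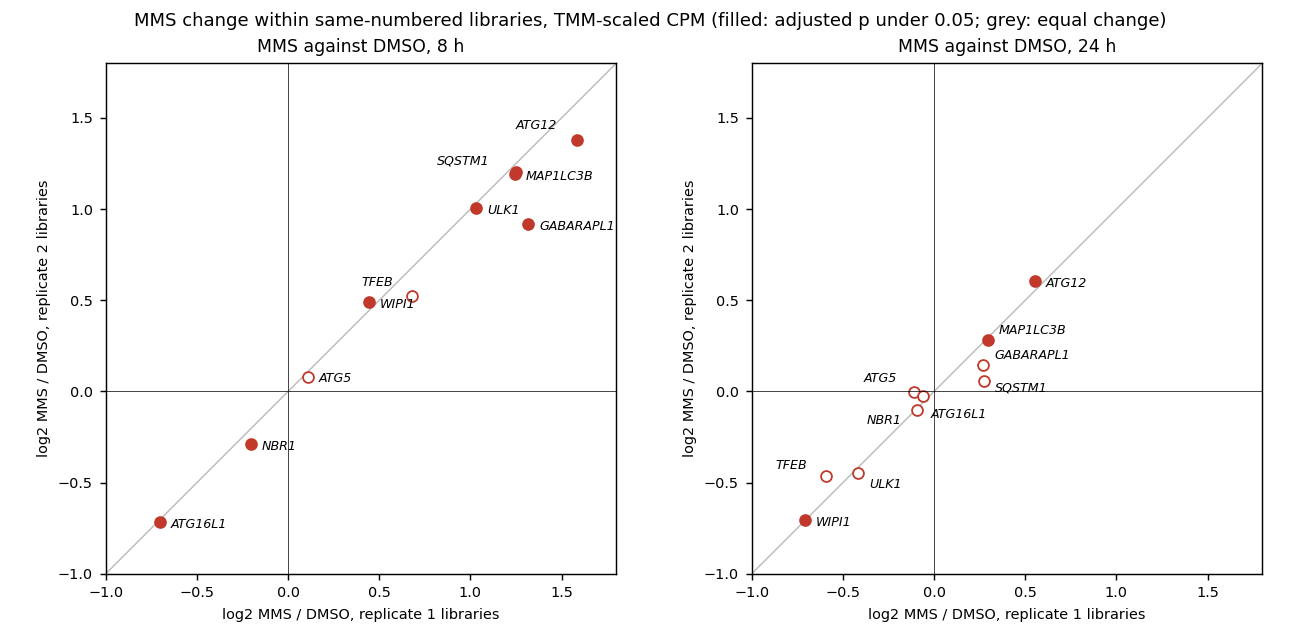
Log2 ratio of MMS to DMSO within the replicate 1 libraries (x axis) and within the replicate 2 libraries (y axis), at 8 h on the left and 24 h on the right, with filled points for an adjusted p under 0.05 and a grey line where both replicates would give the same change. The 10 genes lie near the line, with GABARAPL1 at 8 h furthest from it (1.32 in replicate 1 and 0.92 in replicate 2).

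The difference between the MMS effects at 24 h and at 8 h was tested as an interaction of MMS and time. It passed for 7 of the 10 genes, 1 in the higher and 6 in the lower direction, where 9.13% of all genes passed (3.53% higher and 5.6% lower). The median difference was -0.92 over the 10 genes and -0.030 over all genes. The MMS effect was smaller or reversed at 24 h for SQSTM1 (-1.06 ± 0.15, adjusted p = 0.00135), MAP1LC3B (-0.92 ± 0.13, adjusted p = 0.00169) and ATG12 (-0.91 ± 0.14, adjusted p = 0.00236). WIPI1 was lower than DMSO at 24 h and higher at 8 h, with a difference of -1.17 ± 0.13 (adjusted p = 0.000366). ATG16L1 moved the other way, 0.67 ± 0.13 (adjusted p = 0.00753), and its MMS level at 24 h lay at the DMSO level. Differences for ATG5 (-0.15), NBR1 (0.15) and TFEB (-1.04) did not pass, with 95% intervals of -0.41 to 0.10, -0.08 to 0.39 and -2.72 to 0.64, and TFEB passed with the replicate block (adjusted p = 0.00682), with which 25.5% of all genes passed.

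The difference between the effects takes in any difference between the DMSO libraries of both times. GABARAPL1 averaged 35.9 ± 6.06 CPM (SD, n = 2) at 24 h and 34.7 ± 0.38 CPM at 8 h in MMS libraries, a difference smaller than the spread at 24 h. In DMSO libraries GABARAPL1 averaged 30.1 ± 6.08 CPM at 24 h and 16.6 ± 3.33 CPM at 8 h. WIPI1 averaged 26.2 ± 0.54 CPM at 24 h and 40.9 ± 0.16 CPM at 8 h in MMS libraries, and 41.3 ± 0.21 CPM at 24 h and 30.4 ± 0.04 CPM at 8 h in DMSO libraries. By contrast, SQSTM1 averaged 581 ± 60.7 CPM at 24 h and 579 ± 47.6 CPM at 8 h in DMSO libraries.

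In the comparison of DMSO at 24 h with DMSO at 8 h, 0 of the 10 genes passed in edgeR, where 0.66% of all genes passed. At an unadjusted p under 0.05 there were 5 of 10, and 2257 of all 13948 genes. DESeq2 called 3, GABARAPL1, WIPI1 and NBR1, all higher at 24 h, and 531 over all genes. Nearest to the threshold in edgeR were GABARAPL1 (0.82 ± 0.17, adjusted p = 0.052) and WIPI1 (0.41 ± 0.09, adjusted p = 0.061). With the replicate block 5 genes were higher at 24 h, GABARAPL1, WIPI1, ULK1, NBR1 and TFEB, where 13.6% of all genes passed. The calls on the MMS and time interaction of GABARAPL1 and ULK1 depended most on single libraries. With the replicate block, where 25.5% of all genes passed, both passed. GABARAPL1 then had -0.90 ± 0.19 (adjusted p = 0.0019) and ULK1 -1.45 ± 0.16 (adjusted p = 5.0e-06). Within each replicate number the ULK1 difference was -1.45. The fits with a library left out had no block. The GABARAPL1 difference of -0.90 ± 0.23 (adjusted p = 0.0337) was lost without any one of DMSO 8 h replicate 1 (adjusted p = 0.159), MMS 8 h replicate 1 (0.0898), MMS 8 h replicate 2 (0.0997), MMS 24 h replicate 1 (0.156) and DMSO 24 h replicate 2 (0.143). The ULK1 difference of -1.44 ± 0.35 (adjusted p = 0.0256) was lost without DMSO 8 h replicate 1 (0.106), MMS 8 h replicate 2 (0.0992), MMS 24 h replicate 1 (0.106) or DMSO 24 h replicate 2 (0.0965).

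**Figure D3:**
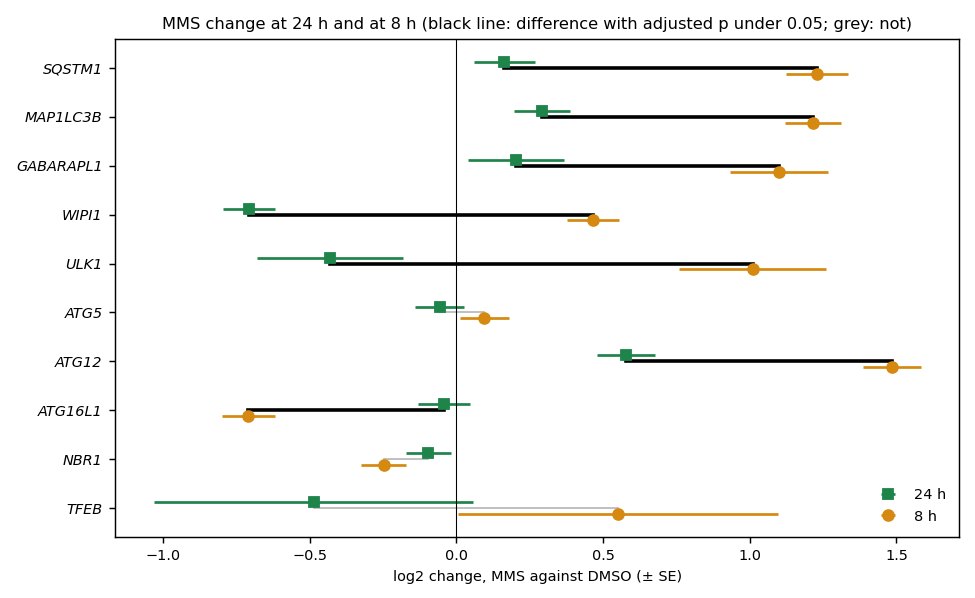
Log2 change of MMS against DMSO with its standard error (x axis) for each gene (y axis), as green squares at 24 h and orange circles at 8 h. Black lines join pairs whose difference passed the test, which holds for 7 of the 10 genes, and WIPI1 lies on opposite sides of 0 at the 2 times.

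Sorafenib alone moved none of the 10 genes past the threshold in edgeR. At 8 h 0 of 10 passed, where 0.394% of all genes did, and at 24 h 0 of 10 passed, where 0.817% did. DESeq2 also called 0 of 10 at each time, against 177 of all genes at 8 h and 294 at 24 h. Over all 13948 genes, 1060 had an unadjusted p under 0.05 at 8 h and 1260 at 24 h. Of the 10 genes, 1 did at 8 h and 0 at 24 h. That gene was NBR1, which had 173 and 167 CPM in sorafenib libraries, against 194 and 210 CPM in DMSO libraries at 8 h (log2 change -0.23 ± 0.08, adjusted p = 0.362). SQSTM1 had 510 and 582 CPM in sorafenib libraries, against 546 and 613 CPM in DMSO libraries at 8 h. These groups overlapped, and the 95% interval of -0.30 to 0.16 did not reach the size of the MMS change. Leaving aside TFEB, whose interval was the widest (-1.49 to 0.94 at 8 h), the intervals of the other 9 genes lay between -0.76 and 0.37 at 8 h and between -0.63 and 0.49 at 24 h.

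The combination was compared with DMSO at 8 h, and this comparison shares its DMSO libraries with those of MMS and sorafenib. Of the 10 genes, 5 rose and 2 fell, where 24.3% of all genes passed (12.5% higher and 11.8% lower). The median log2 change was 0.48, against 0.027 over all genes. SQSTM1 had 1284 and 1141 CPM in combination libraries, against 546 and 613 CPM in DMSO libraries, a log2 change of 1.05 ± 0.11 (adjusted p = 3.2e-05). ATG12 had 136 and 123 CPM in combination libraries, against 50.1 and 53.7 CPM in DMSO libraries (1.31 ± 0.10, adjusted p = 4.85e-06). Both genes stood far above DMSO, as did MAP1LC3B, with 176 and 184 CPM in combination libraries against 79.9 and 95.1 CPM in DMSO libraries (1.03 ± 0.10).

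GABARAPL1 had 39.2 and 35.1 CPM in combination libraries, against 14.2 and 19.0 CPM in DMSO libraries (1.15 ± 0.17, adjusted p = 0.000437). ATG16L1 had 23.4 and 25.1 CPM in combination libraries, against 35.1 and 34.6 CPM in DMSO libraries, and fell (-0.54 ± 0.09, adjusted p = 0.00103). NBR1 had 143 and 155 CPM in combination libraries, against 194 and 210 CPM in DMSO libraries, and fell too (-0.45 ± 0.08, adjusted p = 0.0012). The values of GABARAPL1, ATG16L1 and NBR1 did not overlap between the groups, but the share of all genes without overlap was not counted. ULK1 had 33.9 and 33.8 CPM in combination libraries, against 17.2 and 22.9 CPM in DMSO libraries. With the replicate block it rose by 0.76 ± 0.12 (adjusted p = 4.14e-05), where 39.5% of all genes passed. Without the block it passed by a narrow margin (0.74 ± 0.25, adjusted p = 0.049). The ULK1 call was lost without combination replicate 1 (0.149), combination replicate 2 (0.122), DMSO replicate 1 (0.256) or DMSO replicate 2 (0.0696), the numbers being adjusted p-values. WIPI1 had 38.4 and 33.0 CPM in combination libraries, against 30.4 and 30.3 CPM in DMSO libraries, and did not pass (0.22 ± 0.09, adjusted p = 0.0952). Without combination replicate 2 its log2 change was 0.32. ATG5 (95% interval -0.18 to 0.19) and TFEB (-0.98 to 1.43) did not pass.

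At 24 h the combination differed from DMSO in 3 of the 10 genes, 2 higher and 1 lower, where 33.4% of all genes passed (16.2% higher and 17.2% lower). ATG12 had 78.0 and 75.9 CPM in combination libraries, against 54.0 and 48.2 CPM in DMSO libraries (0.54 ± 0.10, adjusted p = 0.00155). WIPI1 had 27.2 and 25.0 CPM in combination libraries, against 41.4 and 41.1 CPM in DMSO libraries (-0.71 ± 0.09, adjusted p = 0.00014). Both pairs of groups were well apart, whereas MAP1LC3B, with 89.7 and 102 CPM in combination libraries against 75.4 and 77.4 CPM in DMSO libraries, passed narrowly (0.27 ± 0.09, adjusted p = 0.0432). MAP1LC3B no longer passed without combination replicate 2 (adjusted p = 0.223), DMSO replicate 1 (0.14) or DMSO replicate 2 (0.101). With the replicate block 7 genes passed, 4 higher and 3 lower, where 50.5% of all genes did. The genes added were SQSTM1 (0.23 ± 0.08, adjusted p = 0.0205) and GABARAPL1 (0.34 ± 0.13, adjusted p = 0.0335) above DMSO, and ULK1 (-0.40 ± 0.12, adjusted p = 0.00774) and TFEB (-0.55 ± 0.19, adjusted p = 0.0195) below it. Without the block their adjusted p was 0.11, 0.131, 0.236 and 0.449.

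**Figure D4:**
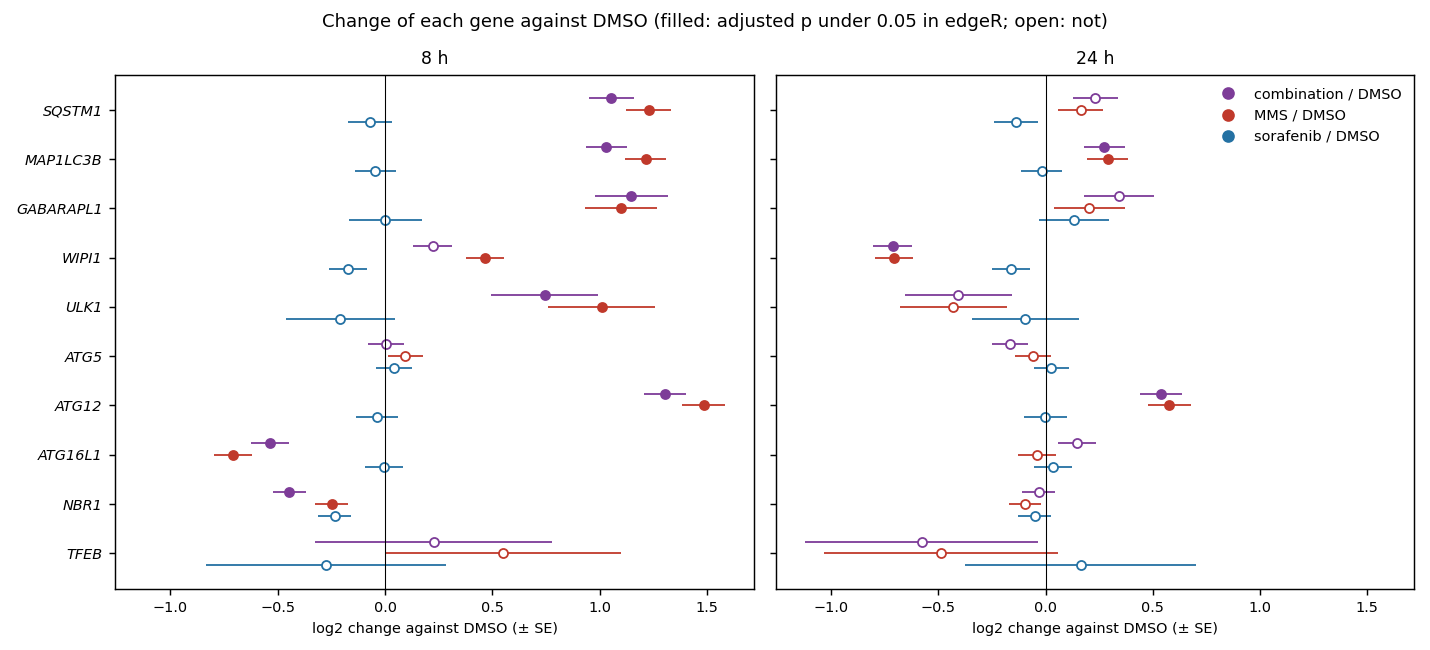
Log2 change against DMSO with its standard error (x axis) for each gene (y axis) at 8 h and 24 h, in purple for the combination, red for MMS and blue for sorafenib, with filled points for an adjusted p under 0.05. The purple and red points lie near each other for most genes, and no blue point is filled.

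The comparison of the combination with MMS takes in all exposure to sorafenib, not the 12 h of pre-incubation alone. In edgeR's test 0 of the 10 genes passed at 8 h, where 0.624% of all genes did, and 0 passed at 24 h, where 0.122% did. DESeq2 also called 0 of 10 at each time, as did the fit with the replicate block, in which 9.51% of all genes passed at 8 h and 2.03% at 24 h. Over all 13948 genes, 1921 had an unadjusted p under 0.05 at 8 h and 689 at 24 h. Of the 10 genes, 2 did at 8 h and 0 at 24 h. Both of those genes were lower in the combination. WIPI1 had 38.4 and 33.0 CPM in combination libraries, against 40.8 and 41.0 CPM in MMS libraries at 8 h (-0.25 ± 0.09, adjusted p = 0.24). NBR1 had 143 and 155 CPM in combination libraries, against 166 and 165 CPM in MMS libraries at 8 h (-0.20 ± 0.08, adjusted p = 0.27). For SQSTM1 the log2 difference was -0.17 at 8 h, with a 95% interval of -0.40 to 0.05, and 0.07 at 24 h, with an interval of -0.16 to 0.30. Apart from TFEB, the intervals of the 9 genes lay between -0.80 and 0.40 at 8 h and between -0.52 and 0.57 at 24 h. The 8 h change between MMS and DMSO in ATG12 (1.48) fell outside both spans. That of ATG16L1 (-0.71) lay outside its own interval at 8 h (-0.02 to 0.37). That of NBR1 (-0.25) lay within its own (-0.37 to -0.03). At 8 h the unadjusted 95% intervals of WIPI1 (-0.44 to -0.05) and NBR1 (-0.37 to -0.03) lay below 0. The median log2 difference of the 10 genes was -0.18 at 8 h, against 0.011 over all genes. At 24 h it was 0.0088, against 0.0057 over all genes.

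The interaction of sorafenib and MMS, which compares the combination with the sum of both single effects on the log2 scale, was passed by 0 of the 10 genes at either time in edgeR. That sum is not matched for time in sorafenib, since the combination had 12 h more of it than sorafenib alone. Over all genes 0% passed at each time, with 505 at 8 h and 304 at 24 h at an unadjusted p under 0.05 and 1 called by DESeq2 at each time. Of the 10 genes, 0 had an unadjusted p under 0.05 or a call by DESeq2 at either time. The widest estimates without TFEB were 0.18 for ATG16L1 at 8 h (95% interval -0.10 to 0.45) and 0.21 for SQSTM1 at 24 h (95% interval -0.12 to 0.53).

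The profiles of the 10 genes over the 8 group means were compared as a description, with points that share their libraries. Pearson's r over the 45 pairs ran from -0.95 to 0.99, with a median of 0.23. SQSTM1 and MAP1LC3B had r = 0.991, and SQSTM1 and ATG12 had r = 0.978, while ATG16L1 ran against MAP1LC3B with r = -0.951. Of the genes with a mean count of at least 50, the 3 whose group means were most like those of SQSTM1 were CSRNP2 (r = 0.996), ZNF197 (0.995) and UTP3 (0.995). For MAP1LC3B they were ZNF274 (0.998), GGNBP2 (0.998) and SNX11 (0.997), and for ATG12 MON1B (0.997), TBC1D15 (0.996) and FSD1L (0.996). For ATG16L1 they were TAF6L (0.990), SLITRK1 (0.988) and LOC100506233 (0.978), and for TFEB HBP1 (0.974), PNRC1 (0.967) and KLHL24 (0.964). The lowest likeness among first matches was for ATG5, whose means spanned only 0.23 on the log2 scale (ZNF236, r = 0.965).

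The promoters of MAP1LC3B and ATG12, which rose at 8 h, and of ATG16L1, which fell, are printed so that genes that moved together and apart can be compared. The sequences are from RefSeq on GRCh38.p14 and run from 250 bases before to 50 bases after the annotated start, 5′ to 3′ on the gene's strand. The 10 genes matched 16 such windows, since some have several starts. The capitals mark a match to TGACNNNGC, the core of the antioxidant response element. MAP1LC3B lies at chr16:87392086-87392385 (plus strand), ATG12 at chr5:115841516-115841815 (minus strand) and ATG16L1 at chr2:233251423-233251722 (plus strand).
MAP1LC3B: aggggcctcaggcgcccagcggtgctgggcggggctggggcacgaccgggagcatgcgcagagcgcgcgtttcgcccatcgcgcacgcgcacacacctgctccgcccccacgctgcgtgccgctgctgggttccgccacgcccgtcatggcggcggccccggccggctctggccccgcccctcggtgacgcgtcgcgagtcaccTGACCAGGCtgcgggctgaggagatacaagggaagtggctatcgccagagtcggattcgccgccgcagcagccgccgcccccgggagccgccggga
ATG12: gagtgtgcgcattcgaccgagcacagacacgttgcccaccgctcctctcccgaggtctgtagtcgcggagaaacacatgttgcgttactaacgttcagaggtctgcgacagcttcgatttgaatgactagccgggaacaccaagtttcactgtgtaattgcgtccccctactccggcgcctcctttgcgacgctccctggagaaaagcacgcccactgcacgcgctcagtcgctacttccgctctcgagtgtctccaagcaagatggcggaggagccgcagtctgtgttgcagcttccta
ATG16L1: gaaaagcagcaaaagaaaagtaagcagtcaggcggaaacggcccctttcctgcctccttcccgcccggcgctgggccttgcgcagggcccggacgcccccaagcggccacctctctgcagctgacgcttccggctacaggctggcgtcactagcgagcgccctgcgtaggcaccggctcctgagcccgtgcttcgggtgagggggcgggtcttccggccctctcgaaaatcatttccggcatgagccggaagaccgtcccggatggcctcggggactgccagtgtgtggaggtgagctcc
Searched on both strands, TGACNNNGC was found in 1 of the 16 windows, that of MAP1LC3B, and in 13.4% of 35116 promoters of the same length. TGATGNAA, a core of the element bound by ATF4 with C/EBP factors, was in 0 of 16 windows and 3.62% of all promoters. CACGTG, the core of the element bound by TFEB, was in 0 of 16 windows and 7.26% of all promoters. No match says only that these letters are not in these windows.

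Other genes of the pathway were counted in 6 lists with 125 genes outside the 10, of which 124 were tested (MAP1LC3C was not). In MMS against DMSO at 8 h, 30 rose and 6 fell, where 14.5% of all genes tested were higher and 12% lower, and the median log2 change was 0.07, against -0.0042 over all genes. With the replicate block 42 rose and 18 fell, where 43.3% of all genes passed in either direction. At 24 h 17 were higher and 15 lower, where 15.2% of all genes were higher and 16.3% lower, and the median was 0.03, against 0.0033 over all genes. With the block 34 were higher and 27 lower, where 48.3% of all genes passed. With sorafenib alone 0 of the 124 passed in edgeR at either time, against 5 at an unadjusted p under 0.05, 2 by DESeq2 and 5 with the replicate block at each time. That block called 5.03% of all genes at 8 h and 7.18% at 24 h. Over all 13948 genes, 1060 at 8 h and 1260 at 24 h had an unadjusted p under 0.05, and DESeq2 called 177 and 294. In the combination against DMSO, 24 rose and 8 fell at 8 h (24.3% of all genes passed), or 37 and 19 with the block (39.5%). At 24 h 27 were higher and 16 lower (33.4% of all genes), or 34 and 22 with the block (50.5%). In the combination against MMS 0 of the 124 passed in edgeR at either time. At an unadjusted p under 0.05 there were 19 at 8 h and 5 at 24 h, and 1921 and 689 of all 13948 genes. DESeq2 called 2 and 0 of the 124, and 366 and 86 of all genes. The block called 1 higher and 11 lower at 8 h, where it called 9.51% of all genes, and 0 higher and 1 lower at 24 h, where it called 2.03%.

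Of the 20 initiation and nucleation genes, 7 rose and 1 fell at 8 h (14.5% and 12% of all genes), and 11 rose and 3 fell with the replicate block (43.3% of all genes in either direction). NRBF2, a subunit of the autophagy form of the class III phosphatidylinositol 3-kinase complex, averaged 43.7 ± 0.68 CPM in MMS and 27.1 ± 1.2 CPM in DMSO libraries (log2 change 0.73 ± 0.09, adjusted p = 0.000147). ATG14, the subunit that directs this complex to autophagy, averaged 62.0 ± 1.74 CPM in MMS and 40.8 ± 3.02 CPM in DMSO libraries (0.64 ± 0.09). C12orf44, now named ATG101 and a member of the ULK1 complex, averaged 57.6 ± 4.98 CPM in MMS and 40.0 ± 1.25 CPM in DMSO libraries (0.56 ± 0.12). At 24 h 2 of the 20 were higher and 0 lower, C12orf44 (0.43 ± 0.12) and PIK3R4 (0.26 ± 0.09), or 4 higher and 1 lower with the block, where 31.5% of all genes passed, or 48.3% with the block.

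Of 12 further genes of the conjugation step, 2 rose and 2 fell at 8 h (14.5% and 12% of all genes), or 2 and 3 with the block (43.3% in either direction). The protease gene ATG4D (0.33 ± 0.11) rose with MAP1LC3B2, and ATG10, which joins ATG12 to ATG5, fell to 1.71 ± 0.10 CPM in MMS libraries, against 2.95 ± 0.29 CPM in DMSO libraries (-0.75 ± 0.24, adjusted p = 0.0349). At 24 h 3 were higher and 2 lower (15.2% and 16.3% of all genes), or 4 and 4 with the block (48.3%). ATG4D (0.58 ± 0.11) and MAP1LC3B2 (0.72 ± 0.15) were higher, and GABARAP averaged 109 ± 10.3 CPM in MMS and 135 ± 3.45 CPM in DMSO libraries (-0.36 ± 0.07, adjusted p = 0.00352).

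Of 17 further receptors, 5 rose and 0 fell at 8 h (14.5% and 12% of all genes), or 7 and 0 with the block (43.3% in either direction). CALCOCO2, a receptor for damaged mitochondria and bacteria, averaged 153 ± 4.17 CPM in MMS and 120 ± 2.28 CPM in DMSO libraries (0.39 ± 0.07, adjusted p = 0.00125). NCOA4, the ferritin receptor (0.36 ± 0.07), and BCL2L13, a mitochondrial receptor (0.36 ± 0.10), also rose. At 24 h 0 were higher and 2 lower (15.2% and 16.3% of all genes), or 2 and 4 with the block (48.3%). The lower genes were the hypoxia-responsive mitochondrial receptors BNIP3L, with 82.0 ± 15.1 CPM in MMS and 132 ± 21.9 CPM in DMSO libraries (-0.74 ± 0.17), and BNIP3 (-0.45 ± 0.14).

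Of 13 fusion genes, 1 rose and 0 fell at 8 h, the SNARE gene SNAP29 (0.32 ± 0.08), or 4 rose and 3 fell with the block, where 26.5% of all genes passed, or 43.3% with the block. At 24 h 3 were higher and 1 lower, among them SNAP29 (0.36 ± 0.08) and VPS33A (0.38 ± 0.11) higher and VAMP8 (-0.40 ± 0.10) lower, or 5 higher and 3 lower with the block, where 31.5% of all genes passed, or 48.3% with the block.

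Of 32 lysosome genes, 4 rose and 1 fell at 8 h (14.5% and 12% of all genes), or 6 and 5 with the block (43.3% in either direction), and their median log2 change was -0.04. GLA, which encodes a lysosomal galactosidase (0.68 ± 0.17), and TMEM55B (0.38 ± 0.10) rose, and the proton pump subunit gene ATP6V1A fell (-0.47 ± 0.09). At 24 h 4 were higher and 6 lower (15.2% and 16.3% of all genes), or 11 and 8 with the block (48.3%). The membrane protein gene LAMP2 averaged 228 ± 19.3 CPM in MMS and 319 ± 8.50 CPM in DMSO libraries (-0.54 ± 0.07, adjusted p = 0.000244), and the protease gene CTSB was lower too (-0.44 ± 0.08). MCOLN1, the lysosomal calcium channel gene, averaged 71.3 ± 5.15 CPM in MMS and 44.1 ± 0.13 CPM in DMSO libraries (0.64 ± 0.11, adjusted p = 0.00135).

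Of 30 regulators of TFEB, mTORC1 and SQSTM1, 11 rose and 2 fell at 8 h (14.5% and 12% of all genes), or 12 and 4 with the block (43.3% in either direction), and SESN2, DDIT3 and NFE2L2 had the smallest p. ATF4, named here after its values were seen, averaged 383 ± 34.8 CPM in MMS and 153 ± 18.7 CPM in DMSO libraries (1.36 ± 0.17, adjusted p = 0.000139). NFE2L2, which encodes NRF2, a factor known to drive SQSTM1, averaged 183 ± 7.61 CPM in MMS and 117 ± 3.59 CPM in DMSO libraries (0.68 ± 0.09, adjusted p = 0.00013). At 24 h 5 were higher and 4 lower (15.2% and 16.3% of all genes), or 8 and 7 with the block (48.3%). KEAP1, the adaptor that targets NRF2 for degradation, averaged 213 ± 25.6 CPM in MMS and 144 ± 17.1 CPM in DMSO libraries (0.52 ± 0.13, adjusted p = 0.0096). It had been higher at 8 h too (0.54 ± 0.13, adjusted p = 0.00789). NFE2L2, which had risen at 8 h, was lower at 24 h (-0.29 ± 0.09, adjusted p = 0.0233). RRAGB was lower at 24 h (-0.39 ± 0.10) but had risen at 8 h (0.36 ± 0.10, adjusted p = 0.021). DDIT4, an inhibitor of mTORC1, was likewise lower at 24 h (-2.44 ± 0.22) and had risen at 8 h (1.29 ± 0.21, adjusted p = 0.000653). It averaged 43.3 ± 1.74 CPM in MMS and 227 ± 32.9 CPM in DMSO libraries at 24 h. At 8 h it averaged 187 ± 14.2 CPM in MMS and 78.5 ± 8.86 CPM in DMSO libraries. From 8 h to 24 h the DMSO mean of DDIT4 thus rose and its MMS mean fell, and both enter the change in its MMS effect. Between the times, the difference of the MMS effects passed for 5 of the 124 list genes in the higher and 11 in the lower direction. Of all genes 3.53% were higher and 5.6% lower. With the block 13 were higher and 26 lower, where 25.5% of all genes passed. Of the 30 regulators 2 were higher and 7 lower, or 4 and 9 with the block. Among the list genes that passed without the block were NFE2L2 (-0.97 ± 0.12, adjusted p = 0.000723), NRBF2 (-0.74 ± 0.13, adjusted p = 0.00583) and MCOLN1 (0.59 ± 0.16, adjusted p = 0.0398).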

How the data were processed

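Whole-number read counts per gene were deposited for 16 RNA-seq libraries. Per the submitters' processing notes, the authors called reads with CASAVA 1.8.2, aligned them to hg19 with TopHat2 2.0.8b and made these counts with HTSeq. The annotation, strand setting and HTSeq version are not given in the sources used here. TruSeq libraries were made from total RNA, per the labels' protocols.

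The 5 rows that name no gene held 37.6 to 39.9% of all counts per library and were left out of totals and tests. The gene counts were fitted in edgeR 4.0.16 (R 4.3.3) with TMM factors, filterByExpr, 8 group means over all 16 libraries and quasi-likelihood tests, adjusted by Benjamini-Hochberg over 13948 genes in each of 12 comparisons. CPM are plain shares of gene counts times 1000000, without TMM factors. The 2 libraries of each group differed beyond counting noise in a chi-square test, so that neither was the other deposited again; whether they are technical repeats was not tested.

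Titles begin in 2 ways, once per group. The labels do not tie these to the 2 experiments. Deviations from the group means of libraries with the same title start correlated in all 28 pairs of groups (r 0.483 to 0.829, median 0.728), so the numbers pair the libraries, and values with the replicate block stand beside the calls that it altered. Other alternatives were DESeq2 1.42.0, RLE size factors, a minimum mean count of 50, no filter on low counts, only the libraries compared, and each library left out.

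Named were the 10 genes, up to 3 genes per list with the smallest p (called, mean count 50 or more), and the 3 most similar profiles per gene. The 10 genes and the lists were chosen with earlier results of these data known. Exon lengths, overlaps and coding sequences come from GENCODE release 29 and promoters from RefSeq (GRCh38.p14), a later build than hg19, and were matched by symbol.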

Additional observations from a re-analysis of the deposited data

Results flagged for a closer look

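The effect of MMS against DMSO differed between 24 h and 8 h, by the test of the difference itself, in 7 of the 10 genes. As log2 change at 24 h minus log2 change at 8 h, the difference was -1.06 for SQSTM1, -0.92 for MAP1LC3B, -0.90 for GABARAPL1, -1.17 for WIPI1, -1.44 for ULK1 and -0.91 for ATG12. It was 0.67 for ATG16L1, the gene that had fallen at 8 h. All 7 had an adjusted p of at most 0.0337 in edgeR. The DMSO means of GABARAPL1 (30.1 and 16.6 CPM), WIPI1 (41.3 and 30.4 CPM) and ULK1 (30.6 and 20 CPM) were also higher at 24 h than at 8 h. These DMSO changes enter the differences of these genes, as log2 changes of 0.82, 0.41 and 0.58. None passed in edgeR (adjusted p = 0.052, 0.061 and 0.279), and all passed with the replicate block, where 13.6% of all genes did. Groups of 2 libraries do not allow a test for a single outlying library.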

How the results depend on the processing

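Of 120 results on the 10 genes, 28 passed the threshold. Under the 6 alternatives that keep all libraries of a comparison, these 28 gave 168 values, of which 162 still passed. Without 1 library, when the lone library of a group is assumed to vary like the others, 114 of 140 did. No value changed sign while it passed in either fit. Of all 720 values under the 6 alternatives 22 changed sign, and of 600 without 1 library 80 did, each of them past the threshold in neither fit. TMM scaling changed the 80 group levels by factors of 0.953 to 1.04, and 22 moved by more than 1 SD.

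The replicate block, which pairs libraries with the same title start, raised the number past the threshold among the 10 genes and over all genes. Against DMSO at 24 h, 5 of the 10 passed for MMS (48.3% of all genes, 31.5% without the block). For the combination 7 passed (50.5% of all genes, 33.4% without the block). For DMSO at 24 h against 8 h 5 passed (13.6% of all genes, 0.66% without the block). For DMSO over time, DESeq2 called 3 (531 over all genes), a mean count of at least 50 gave 2 (166 over all genes) and no filter gave 1. The main fit called 0 of the 10 and 92 over all genes. The block changed the other calls given in the report and no others. NBR1 in MMS at 8 h was also lost with no filter (adjusted p = 0.075) and with only the libraries compared (0.0777). With only the libraries compared, MAP1LC3B was lost at 24 h in MMS (0.0771) and the combination (0.111), and the GABARAPL1 difference between times was lost (0.0833). ULK1 in the combination at 8 h was lost with RLE factors (0.0517).

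Counts over all genes moved as follows. With the block, MMS against DMSO gave 6035 at 8 h and 6730 at 24 h, sorafenib 702 and 1001, the combination 5514 and 7043, the combination against MMS 1326 and 283, the interactions 7 and 4, the MMS difference between times 3562 and DMSO over time 1902. DESeq2 gave 177 and 294 for sorafenib, 366 and 86 for the combination against MMS, 1 for each interaction and 531 for DMSO over time. No filter gave 101 for sorafenib at 8 h, 139 and 43 for the combination against MMS and 1 for the interaction at 24 h. A mean count of at least 50 gave 166 for DMSO over time. Only the libraries compared gave 2714 for MMS at 24 h, 4 and 5 for sorafenib, 1948 for the combination at 8 h, 29 and 5 for the combination against MMS, 776 for the MMS difference and 0 for DMSO over time.

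Without 1 library, MMS against DMSO gave 2272 to 2619 genes at 8 h (6 to 7 of the 10) and 2466 to 3492 at 24 h (2 of the 10). Sorafenib gave 5 to 17 and 12 to 75, the combination 2121 to 3179 (6 to 7 of the 10) and 2940 to 3732 (2 to 3 of the 10). The combination against MMS gave 11 to 644 and 3 to 6, the interactions 0 to 28 at 8 h and 0 at 24 h, the MMS difference 577 to 917 (5 to 7 of the 10) and DMSO over time 0 to 10.

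TFEB, with 43 to 156 reads per library, was the least precisely measured of the 10 genes.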
